A study of Sus scrofa with 6 samples.

Results

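Lymphatic endothelial cells of the piglet ileum were taken from 6 single-cell RNA-seq libraries by their counts of a few marker genes. A member was a cell barcode with at least 1000 UMIs and 500 genes that had at least 3 UMIs of MMRN1, LYVE1 and TBX1 together, no fewer of these than of FLT1 and ADGRL4 together, under 20 UMIs of COL3A1, COL1A1 and COL1A2 and at most 1 UMI of PTPRC. The rule found 114 members among 76099 barcodes of that depth. Each library was made from the ileum of male piglets of a single age (0, 1, 3, 7, 14 or 21 days after birth), offspring of Large White sows fed maternal milk, whose mucosa was scraped off and dissociated with EDTA and TrypLE. Per the methods, 5 piglets were used at each age and 1 chip was loaded per group. The labels name no treatment, and the ages differ in nothing else that they name. With 1 library per age there was no replicate, no test of age was possible, and every interval given covers counting error only. Cells of a library are not replicates, and the piglet behind each cell was not recorded.

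Lymphatic endothelium lines the blind-ended lymphatic capillaries and the valved collecting vessels that return tissue fluid to the blood. In the small intestine its lacteals, which run up the core of each villus, also take up the fat that enterocytes release as chylomicrons. The transcription factor PROX1, switched on by SOX18 and NR2F2, gives these cells their identity, and VEGFC acting on the receptor FLT4 (VEGFR-3) with its co-receptor NRP2 drives their growth. Blood endothelium relies more on VEGFA with FLT1, KDR and NRP1.

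The 6 matrices held 77391932 to 100348769 UMIs, and the barcodes at the depth minimum numbered 10836 to 15956 per library. Among the members, 0 barcodes were members in a second library, and 2 carried a barcode that was also at the depth minimum in another library. Free RNA was gauged from barcodes with at most 100 UMIs, and levels there are given as low-UMI levels. These came to 1460139 UMIs over 1033288 barcodes on day 0 and 4700459 over 1095330 on day 1. Most such barcodes thus held few UMIs, and how well they stand for free RNA was not tested. All levels are UMIs of a gene per 10000 UMIs, summed over the cells of a kind within a library, and 2 levels joined by "and" are day 0 and then day 1.

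The members were found almost entirely at birth and 1 day later. Day 0 held 44 members, which was 0.406% of its barcodes (95% exact binomial interval 0.295% to 0.545%). Day 1 held 69, or 0.6% (0.467% to 0.759%). Day 3 held 0 of 11361 barcodes, for which the exact interval reaches up to 0.0325%. Day 7 held 1 member, and days 14 and 21 held 0 of 15956 and 0 of 13818 barcodes, with intervals up to 0.0231% and 0.0267%. The interval of day 0 overlapped that of day 1, and the limits of the later ages lay below both.

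Blood endothelial cells had at least 3 UMIs of PECAM1, FLT1 and ADGRL4 together, more UMIs of FLT1 and ADGRL4 than of the 3 lymphatic genes and the same collagen and PTPRC limits, and they were likewise fewer at the later ages. They numbered 168 on day 0 (1.55%, 1.33% to 1.8%), 191 on day 1 (1.66%, 1.44% to 1.91%), 23 on day 3 (0.202%, 0.128% to 0.304%), 2 on day 7 and 0 afterwards. Lymphatic cells were 20.8% of the 212 endothelial cells on day 0 (15.5% to 26.8%) and 26.5% of 260 on day 1 (21.3% to 32.3%), and these intervals overlapped. On day 3 they were 0 of 23 endothelial cells, with an exact binomial interval up to 14.8%, below the intervals of days 0 and 1 as far as counting error goes. The 2 day 3 barcodes with at least 3 UMIs of the lymphatic genes had more of FLT1 and ADGRL4 and were not members. Age and library cannot be told apart here, and neither can fewer lymphatic cells in the tissue and fewer released by the dissociation.

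**Figure D1:**
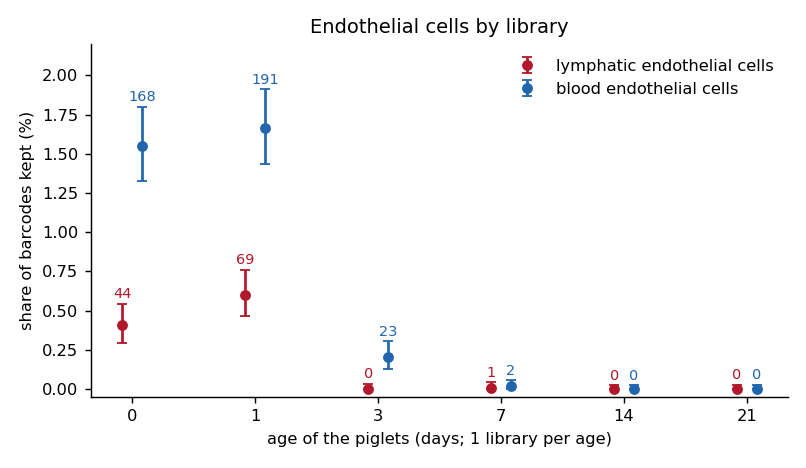
Share of barcodes with at least 1000 UMIs and 500 genes (%) that were lymphatic (red) or blood endothelial cells (blue) in the library of each age in days; bars are exact 95% binomial intervals and the numbers are cells. Lymphatic cells numbered 44 on day 0, 69 on day 1 and 0 or 1 at each later age, while 23 blood endothelial cells were still found on day 3.

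The values that chose the members were mostly far above the minimum. The sum of MMRN1, LYVE1 and TBX1 had a median of 32.5 UMIs on day 0 and 42 on day 1, with the highest cells at 94 and 155, and 32 of 44 and 54 of 69 cells were above 20. Just inside the threshold, 3 and 3 cells had 3 UMIs, and just outside it 9 and 2 barcodes had 2 and met the other limits. Of those just outside, 6 and 1 had at least 2 UMIs of PROX1, PDPN and RELN together, so the rule may have missed some lymphatic cells. All 3 genes were seen together in 33 and 54 members, and 42 and 67 had no UMI of FLT1 or ADGRL4. LYVE1, a hyaluronan receptor (chromosome 2, 48937357 to 48954206, RefSeq annotation of Sscrofa11.1), was at 27.0 and 44.9 UMIs per 10000, MMRN1 (multimerin 1, a secreted matrix glycoprotein; chromosome 8, 129113951 to 129173413) at 13.3 and 21.9 and the T-box factor TBX1 (chromosome 14, 51289376 to 51297110) at 2.68 and 2.97.

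Of the lymphatic genes that the rule did not use, PROX1, PDPN, GPM6A, RELN and FLT4 were each seen in most members on both days. PROX1 (chromosome 9, 129527704 to 129583693) had a UMI in 43 of 44 and 64 of 69 cells, at 6.66 and 6.74 UMIs per 10000 against 0.019 and 0 in blood endothelium. PDPN (podoplanin, the ligand of the platelet receptor CLEC-2) was seen in 39 of 44 and 58 of 69 cells at 3.9 and 5.4, and in blood endothelium it was at 0 on both days. GPM6A, a membrane glycoprotein, was in 43 of 44 and 57 of 69 cells at 5.76 and 4.55 against 0.076 and 0.131. The intervals of these 3 genes did not overlap between the kinds in either library. RELN (reelin, a secreted glycoprotein; chromosome 9, 103460855 to 103963728) was in 34 of 44 and 59 of 69 cells, FLT4 in 36 of 44 and 49 of 69 cells and the chemokine CCL21 (chromosome 10, 32093783 to 32094482), which guides dendritic cells into lymphatics, in 20 of 44 and 42 of 69 cells. At least 2 UMIs of PROX1, PDPN and RELN together were found in 43 of 44 and 65 of 69 members, and 1 and 4 members did not reach that level. Such low counts do not settle the label for each cell, since they include cells with many UMIs of other cell types' genes, described with those markers. Of the 17 listed lymphatic markers, 3 were low, with SNCG at 0 and 0.0206, EFNA5 at 0.0541 and 0.35 and PKHD1L1 at 0.271 and 0.0618. The median cell had 6.41 and 6.83 PROX1 UMIs per 10000, and the highest held 30 and 32 UMIs.

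PROX1 and CCL21 were rare in cells that should lack them. In 2870 and 4414 barcodes with at least 5 UMIs of B lineage genes (median 3476 and 3709.5 UMIs, against 6564.5 and 5950 in the members), PROX1 had a UMI in 3.31% and 1.56% and CCL21 in 0.0348% and 0.136%. With every cell thinned to 1000 UMIs, PROX1 was seen in 47.7% and 44.9% of members and in 0% of blood endothelial cells on both days, and CCL21 in 9.09% and 26.1% of members. Before thinning the shares were 97.7% and 92.8% for PROX1 and 45.5% and 60.9% for CCL21. The members' summed UMIs came to 369545 on day 0 and 485301 on day 1, and the median mitochondrial share was 4.29% and 3.54%.

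**Figure D2:**
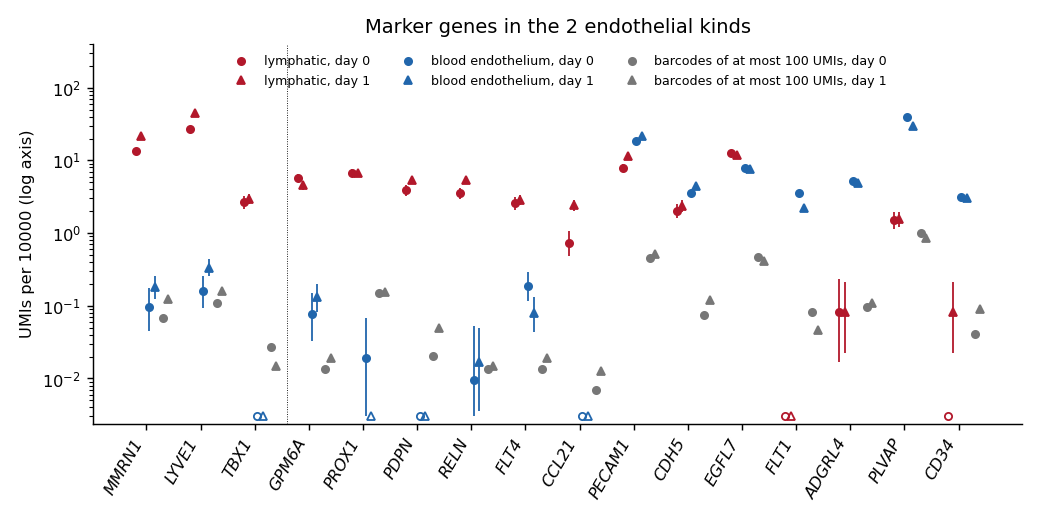
Levels of lymphatic, shared endothelial and blood endothelial genes (UMIs per 10000, log axis) in lymphatic cells (red), blood endothelium (blue) and barcodes of at most 100 UMIs (grey) on day 0 (circles) and day 1 (triangles); lines are exact 95% Poisson intervals, open symbols at the lower edge are 0 UMIs, and the genes left of the dotted line, FLT1, ADGRL4 and PECAM1 chose the cells. PROX1 was at 6.66 and 6.74 in lymphatic cells and at 0.019 and 0 in blood endothelium, while EGFL7 was at 12.6 and 11.9 in the former and 7.81 and 7.68 in the latter.

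Endothelial genes common to both kinds were present. PECAM1, an adhesion molecule of endothelial junctions, was seen in 44 of 44 and 66 of 69 cells, the junction cadherin CDH5 in 34 of 44 and 54 of 69 cells at 2.03 and 2.37 against 3.54 and 4.46 in blood endothelium, and EGFL7, a secreted endothelial protein, in 44 of 44 and 67 of 69 cells at 12.6 and 11.9 against 7.81 and 7.68. The day 7 member had 1348 UMIs, of which 4 were PROX1, 3 PDPN, 5 MMRN1, 2 LYVE1 and 1 TBX1, with 0 of PECAM1. It entered no comparison of levels.

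Markers of other cell types, epithelial ones apart, summed to a few UMIs per 10000 in the members. At least 3 UMIs of the immune markers, MRC1 not counted, were found in 6 of 44 and 13 of 69 members. The 10 fibroblast genes summed to 0.271 and 0.433 UMIs per 10000 and the 11 smooth muscle and pericyte genes to 0.406 and 0.474. COL3A1, COL1A1 and COL1A2, which the rule limited, are among the fibroblast genes, so that sum was partly set by the rule. The PTPRC limit likewise bears on the immune sums. The 15 macrophage and monocyte genes summed to 3.6 and 4.72, against low-UMI levels of 5.63 and 10.7, and 1.43 and 1.05 without MRC1, which the members expressed themselves. C1QC was at 0 on both days and C1QB at 0 and 0.0206. The 10 B lineage genes summed to 1.0 and 0.0824 (low-UMI levels 4.12 and 4.19) and the 10 T and NK genes to 0.595 and 3.24 (low-UMI levels 12.2 and 6.06), where on day 1 a single cell held 83 of the 104 CCL5 UMIs. Erythroid genes summed to 0 and 0.886, glia and neuron genes to 0.839 and 0.824, mast cell genes to 0.162 and 0.474, platelet genes to 0.162 and 0.206 and mesothelial genes, all of it KRT19, to 2.68 and 0.721. The 14 epithelial genes summed to 95.9 and 11.4.

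On day 0 the epithelial sum came largely from single cells. In all, 4 members had at least 100 UMIs of FABP6, TFF3 or CXCL13, genes that mark ileal enterocytes, goblet cells and some stromal cells. A day 0 cell of 42934 UMIs, 11.6% of all member UMIs of that day, had 2047 FABP6 UMIs beside 5 of PROX1 and 5 of GPM6A. Another day 0 cell had 643 TFF3 UMIs and 11 of PROX1, and a day 1 cell had 1972 TFF3 UMIs and, of the lymphatic genes, 3 of TBX1 and 1 of PROX1. The last of the 4, on day 1, had 150 CXCL13 UMIs with 60 of LYVE1 and 412 of C3H2orf40. These cells were kept, since they met the rule. Without them the mesothelial sum was 1.06 and 0.262, the macrophage and monocyte sum without MRC1 was 0.613 and 0.961, and the epithelial genes summed to 28.0 and 9.57, of which APOA1 alone was 19.8 and 6.4, beside low-UMI levels of 12.6 and 28.3. VIL1, KRT8, KRT20 and CDH1 met the rule for higher than in blood endothelium described next, and 0 epithelial genes did without these cells, while without the 5% of barcodes with the most UMIs 8 did. Whether these barcodes held 2 cells was not tested.

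Lymphatic and blood endothelium shared their library, so they were compared within each one. A gene was called higher in lymphatic cells when its level was at least 2-fold that of blood endothelium on day 0 and on day 1, with at least 20 UMIs over both libraries in the higher kind and the lower count raised to 3 UMIs. Of 5719 genes with enough UMIs in lymphatic cells, 540 were higher (9.44%), and of 9087 with enough in blood endothelium, 498 were lower in lymphatic cells (5.48%). With TMM scaling, which moved all ratios down by 0.16 (day 0) and 0.20 (day 1) on the log2 scale, these became 457 and 637, and the share of higher among both went from 52.0% to 41.8%. Under it 1 and 9 pan-endothelial genes were higher and lower (2 and 7 without it), 7 and 11 matrix genes, 5 and 6 coagulation genes, 2 and 2 hypoxia genes and 1 and 15 interferon-stimulated genes. Both kinds were picked by marker genes in the same cells, so the differences are a description and carry no test. The day 3 library could not enter, for want of lymphatic cells.

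The 15 genes with the largest smaller-of-both-days ratio included C3H2orf40, PROX1, PARD6G, PDPN, SCG3, LYVE1, RELN, MMRN1, TBX1, S100A4, MRC1, TNFAIP8L3, PTX3 and SPON2. Of these LYVE1, MMRN1 and TBX1 chose the members. PROX1 was 350.2-fold (95% interval 95.9 to 2908) higher on day 0 and at least 394-fold higher on day 1. RELN was 373-fold (95% interval 65.8 to 14842) and 318-fold (95% interval 108 to 1552) higher, and PARD6G, a cell polarity protein, 153-fold (95% interval 58.9 to 567) and 142-fold (95% interval 76.6 to 299). MRC1, the mannose receptor that macrophages also carry, was at 2.16 and 3.67 UMIs per 10000 in 29 of 44 and 53 of 69 cells and at 0 in blood endothelium on both days, and PTX3, a soluble pattern recognition protein, was at 1.92 and 2.84 against 0 on both days. C3H2orf40 (the pig counterpart of C2orf40, which encodes the secreted peptide precursor augurin), SCG3 (secretogranin III) and S100A4 (a calcium-binding protein) stood high in sum, and they had a UMI in 12 of 44 and 4 of 69 cells, in 23 of 44 and 15 of 69 cells and in 20 of 44 and 14 of 69 cells, in that order.

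In the other direction the 15 leading genes were FAM167B, ADGRL4, NRP1, SPARCL1, CD36, PKIB, CD34, FLT1, SOX17, CDC42EP3, GPIHBP1, CYYR1, JAM2, MMRN2 and BTNL9. Of these ADGRL4 and FLT1 chose the cells. NRP1, the co-receptor of VEGFA and class 3 semaphorins, was at 5.86 and 2.83 UMIs per 10000 in blood endothelium and at 0 and 0.0618 in lymphatic cells. CD36, the fatty acid translocase, was at 11.96 and 7.95 against 0.0271 and 0.206, where all 10 day 1 UMIs lay in 1 cell. CD34, a sialomucin, was at 3.14 and 3.0 against 0 and 0.0824, SOX17, a transcription factor of arterial cells, at 3.65 and 4.14 against 0 and 0.124, and GPIHBP1, which holds lipoprotein lipase on capillaries, at 2.32 and 5.89 against 0.0271 and 0.0824. FAM167B and CDC42EP3 had 0 and 0 UMIs in lymphatic cells on day 0 and 3 and 0 on day 1.

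**Figure D3:**
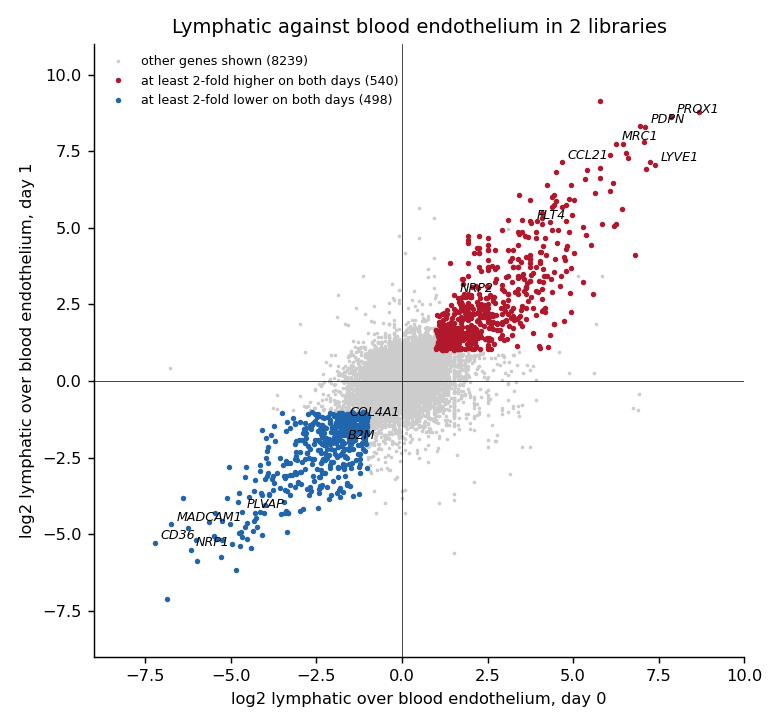
Log2 ratio of lymphatic to blood endothelial level on day 0 (horizontal) and day 1 (vertical), each point a gene with at least 20 UMIs in either kind and the lower count raised to 3 UMIs; red genes were at least 2-fold higher and blue genes at least 2-fold lower in lymphatic cells on both days. 540 genes lie in the upper right and 498 in the lower left group, with PROX1 at the upper right end.

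Gene lists were read against all 9277 genes with at least 20 UMIs in either kind, whose median log2 ratio was 0.07 on day 0 and 0.06 on day 1. The counts of each list stand beside shares over all genes of 9.44% higher and 5.48% lower. The VEGFC axis gave 2 of 5 higher and 3 of 8 lower (2 lower without FLT1, which chose the cells; median -0.14 on day 0 and -0.35 on day 1). FLT4, the VEGFC receptor, was at 2.6 and 2.86 UMIs per 10000 against 0.19 and 0.0798 in blood endothelium, and NRP2, its co-receptor, at 1.6 and 3.75 against 0.551 and 0.541. KDR (VEGFR-2), which both kinds use, was at 2.35 and 3.05 against 3.74 and 2.56. VEGFC itself was at 0 and 0.0412 in lymphatic cells and at 1.63 and 1.46 in blood endothelium, which was at least 20.1-fold higher there on day 0 and 35.4-fold (95% interval 9.7 to 294) on day 1. The angiopoietin and TIE list held 2 genes each way: ANGPT2, a ligand of the receptor TEK (TIE2), at 5.03 and 2.72 against 0.513 and 0.365 and ANGPTL4, an inhibitor of lipoprotein lipase, at 3.33 and 5.34 against 0.599 and 0.809 were higher, while TEK at 0.433 and 0.721 against 2.39 and 2.23 and the phosphatase PTPRB, which acts on TEK, at 0.622 and 1.07 against 4.4 and 2.79 were lower. TIE1, the orphan receptor of the pair, was at 1.89 and 2.39 against 1.23 and 1.35.

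Among 24 listed transcription factors, the counts were 5 of 16 higher and 4 of 16 lower (median -0.39 on day 0 and -0.45 on day 1). The higher ones count TBX1, which chose the members, and without it were 4, namely PROX1, NR2F2 (COUP-TFII, an inducer of PROX1), NR2F1 and TAL1. Without the 4 cells 3 were lower. NR2F1 was at 3.17 and 2.68 against 0.0285 and 0.154 and NR2F2 at 2.3 and 3.79 against 0.836 and 1.6. SOX18, the other inducer, stood at 10.1 and 9.05 against 8.08 and 9.44, inside the 2-fold limits on both days. HEY1, a NOTCH target, EPAS1 (HIF-2 alpha) and FLI1 were among the lower ones, with HEY1 at 0.0271 and 0.0206 against 0.779 and 0.513. The NOTCH list gave 2 of 7 higher and 5 of 13 lower (median -0.81 on day 0 and -0.81 on day 1): NOTCH1 at 2.14 and 1.46 against 0.456 and 0.502 and the ligand DLL1 were higher, while NOTCH4, JAG1, JAG2, HEY1 and NRARP were lower, JAG2 being at 0 in lymphatic cells on both days.

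Most called junction genes were lower and all called valve genes higher. The endothelial junction list gave 1 of 9 higher and 5 of 16 lower (median -0.60 on day 0 and -0.83 on day 1). PLVAP, which forms the diaphragms of fenestrated capillaries, was at 1.52 and 1.55 against 39.1 and 30.0 in blood endothelium, the adhesion molecule ESAM at 0.189 and 0.206 against 3.22 and 2.7, and JAM2 at 0 and 0.0206 against 2.19 and 1.91. On day 1 a single member held 39 of the 75 PLVAP UMIs. That cell met the rule with 3 UMIs of LYVE1 against 3 of ADGRL4, and it had 20 UMIs of PECAM1, 4 of VWF and 0 each of PROX1, PDPN, RELN, GPM6A, FLT4 and CCL21. CDH5, the cadherin of both kinds, did not reach a 2-fold difference on either day. Valve genes gave 5 of 10 higher and 0 of 10 lower (median 1.34 on day 0 and 1.32 on day 1). GJA1 (connexin 43) was at 2.62 and 4.2 against 0.77 and 0.764, PIEZO1, a mechanically gated channel, at 0.893 and 0.742 against 0.352 and 0.296 and EPHB4, the receptor of ephrin B2, at 1.03 and 1.48 against 0.38 and 0.502. FOXC2, the forkhead factor of valve formation, had 8 and 10 UMIs in 8 and 5 cells, and CLDN11 7 and 2.

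Genes of leukocyte traffic gave 5 of 18 higher and 8 of 24 lower (median 0.11 on day 0 and -0.90 on day 1). CCL21 was at 0.731 and 2.41 UMIs per 10000 in lymphatic cells and at 0 in blood endothelium, ACKR2, a receptor that takes up inflammatory chemokines, at 0.379 and 1.03 against 0, and IL7, the T cell survival cytokine, at 0.622 and 0.247 against 0.038 and 0.0171. SPHK1, which makes sphingosine 1-phosphate, was at 0.352 and 0.474 against 0.019 and 0.0285, and the receptor S1PR1 was at 4.0 and 5.52 against 3.68 and 4.47. Several adhesion and chemokine-related genes of this list were lower in lymphatic cells. MADCAM1, the gut homing addressin, was at 8.71 and 14.2 in blood endothelium against 0 and 0.556, ACKR1 at 1.72 and 2.7 against 0 on both days, SELP at 0.523 and 0.906 against 0.0271 and 0.0824, ICAM1 at 1.04 and 2.24 against 0.108 and 0.35 and CXCL12 at 2.8 and 0.878 against 0 and 0.0618. CCL2 and ICAM2 were lower as well, and CXCL8 met the rule for higher although most of its UMIs sat in few cells (highest cell 27 of 39 on day 1).

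Scavenger and hyaluronan receptors gave 6 of 7 higher and 2 of 9 lower, of which LYVE1 chose the members, so that 5 higher ones did not enter the rule (median 1.51 on day 0 and 1.15 on day 1; with TMM scaling 5 higher and 3 lower). STAB1 was at 3.95 and 3.15 against 0.228 and 0.148, STAB2, its paralogue, at 0.433 and 0.433 against 0, and the lipoprotein receptor VLDLR at 0.298 and 0.536 against 0.0855 and 0.0741. CD36 and SCARB1 were lower. Guidance genes gave 7 of 14 higher and 3 of 15 lower (median 0.99 on day 0 and 0.42 on day 1). NTN1 (netrin 1) was at 0.866 and 1.44 against 0 on both days, SEMA3D, a secreted semaphorin, at 1.16 and 1.67 against 0 and SEMA3A, which binds NRP1, at 0.595 and 0.886 against 0 and 0.0057. SEMA6A, NRP2, RELN and EPHB4 completed the 7.

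Matrix genes gave 9 of 24 higher and 11 of 30 lower (median -0.49 on day 0 and 0.01 on day 1). Without MMRN1, which chose the members, 8 were higher, and without the 4 cells 11, MMRN1 included. The collagens of the basement membrane were lower in lymphatic cells, COL4A1 at 9.42 and 11.5 against 30.5 and 27.4 and COL4A2 at 3.14 and 3.98 against 11.7 and 10.9, as were the proteoglycan HSPG2 at 0.785 and 1.2 against 5.62 and 6.97, SPARC at 0.325 and 0.288 against 3.33 and 3.47, IGFBP7 at 24.98 and 21.6 against 106 and 86.7 and the collagen-binding integrin subunit ITGA1 at 0.135 and 0.227 against 3.69 and 2.86. Higher were LAMA4, a laminin chain, at 1.87 and 2.86 against 0.874 and 0.752, EMILIN1, an elastic fibre protein, at 0.893 and 0.783 against 0.143 and 0.239, TIMP1, a metalloproteinase inhibitor, at 6.17 and 11.5 against 2.13 and 4.31, and MGP (matrix Gla protein, an inhibitor of calcification) at 32.0 and 7.58 against 0.0285 and 0.781. MGP was uneven, with 470 of its 1184 day 0 UMIs in 1 cell and a UMI in 21 of 44 and 18 of 69 cells.

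Coagulation and tone genes gave 5 of 17 higher and 5 of 20 lower (median -0.04 on day 0 and -0.10 on day 1). F8 (coagulation factor VIII) was at 1.65 and 2.29 UMIs per 10000 against 0.266 and 0.171, TFPI, the inhibitor of the tissue factor pathway, at 1.57 and 1.69 against 0.00951 and 0.0057, and PROCR, the protein C receptor, at 1.27 and 0.968 against 0.19 and 0.217. VWF, the platelet-binding carrier of factor VIII, was at 2.11 and 1.65 against 7.2 and 4.74, PLAT (tissue plasminogen activator) at 0.216 and 0.247 against 5.98 and 3.84, and NOS3, the endothelial nitric oxide synthase, at 0 against 0.428 and 0.667. Growth factor genes gave 4 of 12 higher and 8 of 22 lower (median -0.81 on day 0 and -0.97 on day 1). IGF1 was at 1.65 and 1.77 against 0.00951 and 0.0513 and IGF2 at 0.487 and 0.227 against 5.63 and 4.57, so the insulin-like growth factors stood on opposite sides. KITLG (stem cell factor) was at 0 and 0.0618 against 1.55 and 1.36, and the peptide APLN and its receptor APLNR were at 0 in lymphatic cells on both days.

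Many antigen presentation genes were lower (0 of 17 higher and 14 of 24 lower, median -1.98 on day 0 and -1.87 on day 1). B2M, the light chain of MHC class I, was at 9.15 and 8.68 against 30.6 and 35.3, SLA-1 at 4.74 and 6.49 against 18.6 and 22.8 and SLA-2 at 2.57 and 2.84 against 19.5 and 17.9. Reads of the SLA class I genes can be split between near-identical copies. The class II invariant chain CD74 was at 1.98 and 1.48 in lymphatic cells, against 16.1 and 14.7 in blood endothelium and low-UMI levels of 11.6 and 14.7, and SLA-DRA at 0.406 and 0.721 against 5.95 and 9.44 and 5.23 and 7.11, so these 2 genes in lymphatic cells lay below their low-UMI levels. With genes near the low-UMI level left out, 5 antigen presentation genes were lower. Interferon-stimulated genes gave 3 of 14 higher and 14 of 26 lower (median -1.30 on day 0 and -1.41 on day 1), and the lower ones came to 8 with genes near the low-UMI level left out, with members of 3 or more immune marker UMIs left out, or without the 4 cells and the subset. With MRC1, which the members express, not counted among the immune markers, 13 were lower. Examples are IFI6 at 1.35 and 5.6 against 21.1 and 32.1 and ISG15 at 0.325 and 2.31 against 4.22 and 8.95, while GBP1 was higher at 1.38 and 2.56 against 0.0855 and 1.16.

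Many immediate early genes were lower too (1 of 17 higher and 10 of 19 lower, median -1.18 on day 0 and -1.62 on day 1), for example FOS at 2.95 and 3.67 against 15.1 and 18.8 and ATF3 at 1.76 and 2.6 against 6.18 and 8.99. Their low-UMI levels were 6.93 and 4.62 and 4.87 and 3.3, and with genes near that level left out 3 were lower, while without the 4 cells 13 were. IER3 was the exception, at 2.68 and 5.36 against 0.656 and 0.809. Iron, complement and acute phase genes gave 7 of 16 higher and 2 of 18 lower (median 1.09 on day 0 and 0.90 on day 1), and without the 4 cells 5 higher and 3 lower. With genes near the low-UMI level left out 3 were higher and 0 lower, and with a minimum of 50 UMIs or the immune members left out 2 were higher. With MRC1 not counted among the immune markers 5 were higher. SERPING1, the C1 inhibitor, was at 3.54 and 2.04 against 0.133 and 0.524, CD55, which limits complement, at 0.406 and 0.474 against 0.038 and 0.0171 and the iron exporter SLC40A1 at 0.487 and 0.577 against 0.133 and 0.0855. Lipid genes gave 1 of 13 higher and 3 of 18 lower (median -0.15 on day 0 and -0.26 on day 1), and with TMM scaling 5 were lower. FABP5, a fatty acid binding protein, was abundant in both, at 63.6 and 35.9 against 74.2 and 66.3, while FABP4 was at 0 against 0.665 and 0.616 and CPT2, of mitochondrial fatty acid oxidation, was higher at 0.704 and 0.433 against 0.133 and 0.125. AQP1, a water channel, was at 2.44 and 4.31 against 0.846 and 0.946 and the channel PIEZO2 at 0.92 and 1.15 against 0.0855 and 0.0114.

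Heat shock, ribosomal protein and mitochondrially encoded genes gave 0 called genes each way, with medians of -0.45 on day 0 and -0.31 on day 1, -0.16 on day 0 and -0.28 on day 1 and -0.09 on day 0 and 0.18 on day 1. The BMP and TGF-beta list gave 3 of 12 higher and 5 of 16 lower (median -0.39 on day 0 and 0.17 on day 1), with TGFB2 at 1.38 and 1.4 against 0.342 and 0.2 higher and ENG (endoglin), the co-receptor of BMP9, at 1.79 and 1.38 against 6.0 and 4.52 lower, as were its partner ACVRL1 and SMAD6. The channel and transporter list gave 4 of 6 higher and 2 of 11 lower (median 0.26 on day 0 and -0.45 on day 1), and the hypoxia and glycolysis list 2 of 16 higher and 1 of 21 lower (median 0.14 on day 0 and -0.16 on day 1). The hypoxia counts were close to the shares over all genes, 9.44% and 5.48%.

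The members were not uniform. C3H2orf40 (chromosome 3, 48960413 to 48971878) and SCG3 (chromosome 1, 120045302 to 120090035) were concentrated in a minority, and after these values were seen a subset was set apart as the members with at least 5 UMIs of both genes together, the 4 cells with at least 100 UMIs of FABP6, TFF3 or CXCL13 excluded. It held 13 of 44 members on day 0 (29.5%, 95% exact binomial interval 16.8% to 45.2%) and 8 of 69 on day 1 (11.6%, 5.14% to 21.6%), 21 cells in all against 88 others. SCG3 marked the day 1 cells more than C3H2orf40 did, which had a UMI in 10 of 13 subset cells on day 0 and 3 of 8 on day 1. Median depth was 9592 and 6695 UMIs in the subset and 5960 and 5726 in the others. These values describe these cells and carry no test, because the cells were chosen from them.

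PROX1, GPM6A and PECAM1 were found in the subset on both days, and several other lymphatic genes were lower there. PROX1 was at 4.79 and 11.2 UMIs per 10000 in the subset and 9.21 and 6.16 in the other members, GPM6A at 5.43 and 6.99 and 7.1 and 4.27, and PECAM1 at 7.9 and 12.6 and 9.75 and 12.01. FLT4 was at 1.52 and 1.2 in the subset against 4.06 and 3.41, and PDPN at 2.15 and 5.78 against 5.69 and 5.55, lower there on day 0 only. TBX1, which chose members and was the only rule gene of lymphatic cells seen in some subset cells, was at 2.71 and 4.46 against 3.09 and 2.77. LYVE1, another rule gene, was at 10.9 and 19.9 in the subset against 45.4 and 52.1, MMRN1 at 3.27 and 4.46 against 23.8 and 27.2, RELN at 0.958 and 0.964 against 6.18 and 6.83, and NRP2 at 0.0798 and 0.964 against 2.654 and 4.56. The scavenger receptor STAB1 stood at 1.76 and 0.843 against 6.45 and 3.87, MRC1 at 0.958 and 0.723 against 3.68 and 4.59, the water channel AQP1 at 0.239 and 0.723 against 4.71 and 5.42, the chemokine CCL24 at 0.16 and 0.12 against 2.06 and 5.1, and VWF at 0.479 and 0.241 against 3.52 and 2.08. From LYVE1 on, the genes named were lower in the subset on both days. On day 1 a single cell had 29350 of the subset's 83030 UMIs, with 115 of LYVE1, 27 of MMRN1 and 7 of RELN. These 3 genes had a UMI in 7, 5 and 2 day 1 subset cells, so their day 1 levels there rest largely on that cell. The deepest day 0 subset cell had 22059 of the subset's 125317 UMIs that day. It had 13 UMIs of the epithelial gene EPCAM, 55 of C3H2orf40, 8 of PECAM1, 5 of PROX1 and 3 of TBX1. MMRN1, LYVE1, PDPN and RELN were at 0 in it, and whether it held 2 cells was not tested.

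Genes that were higher in the subset on both days included S100A4 (chromosome 4, 96088102 to 96091160) at 15.5 and 47.8 against 0.758 and 0.347, S100A6 at 7.82 and 19.3 against 0.65 and 1.44, and HOPX, a homeodomain cofactor, at 16.4 and 13.7 against 0.596 and 2.32. The gap junction gene GJA4 (connexin 37, known from lymphatic valves and arteries) was at 15 and 10.6 against 2.0 and 0.747, and GJD3 at 2.71 and 3.25 against 0.325 and 0. ADM (adrenomedullin, a vascular peptide hormone) was at 7.74 and 5.9 against 0.0542 and 0.293, WNT11, a secreted WNT ligand, at 1.44 and 1.2 against 0 on both days, FN1 (fibronectin) at 5.43 and 2.65 against 0.217 and 0.4, and ARL9 at 2.95 and 1.81 against 0.163 and 0.08. Within the subset ADM had a UMI in 10 and 2 cells, GJA4 in 10 and 4, ARL9 in 10 and 3 and WNT11 in 5 and 4. The 2 day 1 cells with ADM held 14 and 35 of its UMIs and 29 and 56 UMIs of GJA4, so these day 1 levels rest on few cells. FOXC2 had a UMI in 4 and 1 subset cells and in 2 and 4 of the others.

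**Figure D4:**
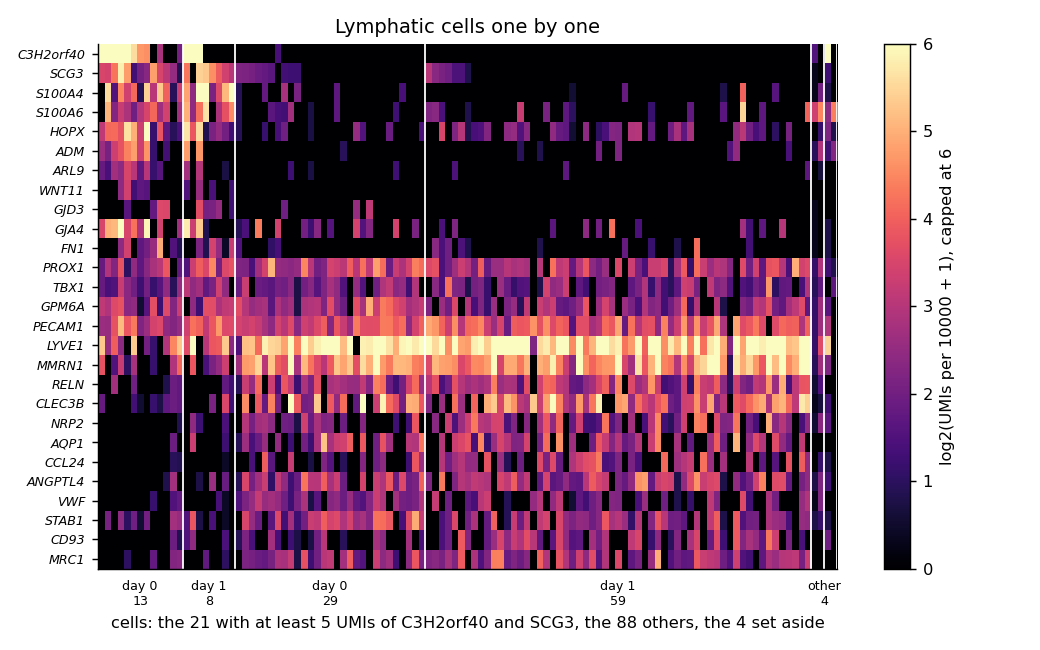
Each column is a member of day 0 or day 1 and each row a gene, coloured by log2(UMIs per 10000 + 1) with values above 6 drawn as 6; from left to right stand the subset (13 and 8 cells of day 0 and day 1), the other members (29 and 59) and the 4 cells with at least 100 UMIs of FABP6, TFF3 or CXCL13. The upper rows are bright in the subset, the rows from LYVE1 down are bright in the other members, and PROX1 to PECAM1 run through both.

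Levels on day 1 were compared with day 0 in the members, the question being how the cells differed over the first day of life. Of 3923 genes with at least 20 UMIs on day 1, 372 were at least 2-fold higher there (9.48%), and of 2916 with at least 20 on day 0, 160 were at least 2-fold lower on day 1 (5.49%). In blood endothelium the counts by the same limits were 506 of 7828 (6.46%) and 121 of 5990 (2.02%). Each comparison rests on 1 library per age and has no replicate check. Without the members with at least 3 immune marker UMIs (MRC1 not counted) the genes lower on day 1 came to 94. Without the 4 cells they came to 88, and without the subset as well to 37 of 1506 (2.46%), while those higher came to 371 and 285 of 3140 (9.08%). Of the 372 genes higher and the 160 lower in all members, 161 and 13 were among those of the members outside the subset and the 4 cells.

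Most of the 10 leading lower genes and some of the 10 leading higher ones rested on single cells. On the lower side they were FABP6, SPP1, LOC100627471, PGLYRP2, CCL20, PAEP, SLC5A1, IGFBPL1, SLC2A6 and IL18BP. Of these FABP6 had 2047 of 2058 day 0 UMIs in 1 cell, SPP1 224 of 225, SLC5A1 25 of 28 and CCL20 all 126, while IL18BP, a binding protein of the cytokine IL-18, had its day 0 UMIs in 9 cells, at 0.649 and 0.0824. LOC100627471, PGLYRP2, PAEP, IGFBPL1 and SLC2A6 each had a UMI in 1 day 0 cell. On the higher side they were CXCL13, VCAM1, MT1A, PTTG1, LOC102166944, CENPE, TGM2, TPX2, RDH10 and FCAMR. CXCL13 had 150 of 151 UMIs in 1 cell, VCAM1 74 of 80 and FCAMR all 37. MT1A, a metal-binding metallothionein, was in 2 of 44 and 18 of 69 cells at 0.0541 and 1.15, TGM2 (transglutaminase 2) in 2 of 44 and 21 of 69 cells at 0.0541 and 0.845 and RDH10, of retinoic acid synthesis, in 2 of 44 and 20 of 69 cells at 0.0812 and 0.804. The uncharacterised LOC102166944 was in 6 of 44 and 17 of 69 cells at 0.162 and 2.08. PTTG1, CENPE and TPX2 are genes of mitosis, and a single day 1 cell held 14 of 52, 17 of 41 and 21 of 40 of their UMIs.

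Some lymphatic and endothelial genes stood higher on day 1 in many cells, while most genes of the marker lists stayed inside the 2-fold limits. By list, lymphatic markers gave 2 of 13 higher and 0 of 12 lower, pan-endothelial markers 1 of 16 and 0 of 15, and blood endothelial markers 2 of 6 and 0 of 5. Over all genes the shares were 9.48% and 5.49%. The 2 lymphatic markers were CCL21 and TFF3, and 1 day 1 cell held 1972 TFF3 UMIs. Without the 4 cells 1 lymphatic marker was higher and 1 lower. Outside the subset and the 4 cells 1 of 12 lymphatic, 0 of 16 pan-endothelial and 2 of 6 blood endothelial markers were higher, against 9.08% of all genes there. CCL21 was at 0.731 and 2.41 UMIs per 10000, 3.3-fold (95% interval 2.16 to 5.22) higher on day 1, and in 20 of 44 and 42 of 69 cells. NRP2 was at 1.6 and 3.75, 2.35-fold (95% interval 1.74 to 3.21) higher, in 21 of 44 and 51 of 69 cells. CD93, a C-type lectin-like receptor, was at 0.866 and 3.15 in 17 of 44 and 45 of 69 cells, the adrenomedullin receptor subunit CALCRL at 2.87 and 6.64 in 35 of 44 and 62 of 69 cells, and the integrin subunit ITGA9 at 0.189 and 0.886 in 6 of 44 and 25 of 69 cells. In blood endothelium NRP2 was at 0.551 and 0.541, CD93 at 8.8 and 7.93, CALCRL at 6.21 and 6.16 and ITGA9 at 0.2 and 0.114. The basement membrane protein NID2 was at 0.406 and 1.63 in 9 of 44 and 35 of 69 cells, FSTL1 (follistatin-like 1) at 0.947 and 2.82, the netrin receptor UNC5B at 0.487 and 1.34, and ACKR2 at 0.379 and 1.03.

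Because the subset held 29.5% of the cells on day 0 and 11.6% on day 1, these genes are also given for the members outside it and outside the 4 cells. There CCL21 was at 1.19 and 2.53, NRP2 at 2.654 and 4.56, CD93 at 1.52 and 3.79, CALCRL at 4.17 and 7.47, ITGA9 at 0.217 and 1.04, NID2 at 0.758 and 2.0, FSTL1 at 1.63 and 3.49, UNC5B at 0.758 and 1.33 and ACKR2 at 0.704 and 1.17. NRP2, CALCRL, UNC5B and ACKR2 lay inside the 2-fold limits in these cells, and CCL21, CD93, ITGA9, NID2 and FSTL1 did not. TGM2 was at 0 and 0.96, MT1A at 0.0542 and 1.47, CMTM8 at 0.325 and 1.57 and the growth regulator NOV at 0 and 0.72. MMRN1 and LYVE1, which chose the members, were at 23.8 and 27.2 and at 45.4 and 52.1, closer between the days than in all members.

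Fewer genes were lower on day 1 outside the subset. MGP was at 32.2 and 4.14 UMIs per 10000 in 13 of 29 and 13 of 59 cells, and at 32.0 and 7.58 in all members. Outside the subset 1 cell held 292 of 594 day 0 UMIs and 1 cell 101 of 155 day 1 UMIs, and without these cells the levels were 17.4 and 1.49. LFNG, a glycosyltransferase that modifies NOTCH receptors, was at 1.79 and 0.427 and in all members at 1.43 and 0.515, 2.78-fold (95% interval 1.7 to 4.68) higher on day 0. GAS6, a ligand of TAM receptors, was at 1.46 and 0.48 and IFIT2, an interferon-stimulated gene, at 1.63 and 0.507. GJA4 was at 2.0 and 0.747 and in all members at 6.12 and 2.41. IL33, an alarmin, was at 1.03 and 0.185 in all members (12 of 44 and 5 of 69 cells) and at 0.975 and 0.16 outside the subset, where 1 cell held 13 of 18 day 0 UMIs, under the minimum of 20, and the level without that cell was 0.288, while in blood endothelium it was at 1.04 and 2.62. FABP5 and the BMP target ID3 were at 63.6 and 35.9 and at 5.03 and 2.78, inside the 2-fold limit in all members and at 68.1 and 32.6 and 6.18 and 2.88 outside the subset, past it.

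**Figure D5:**
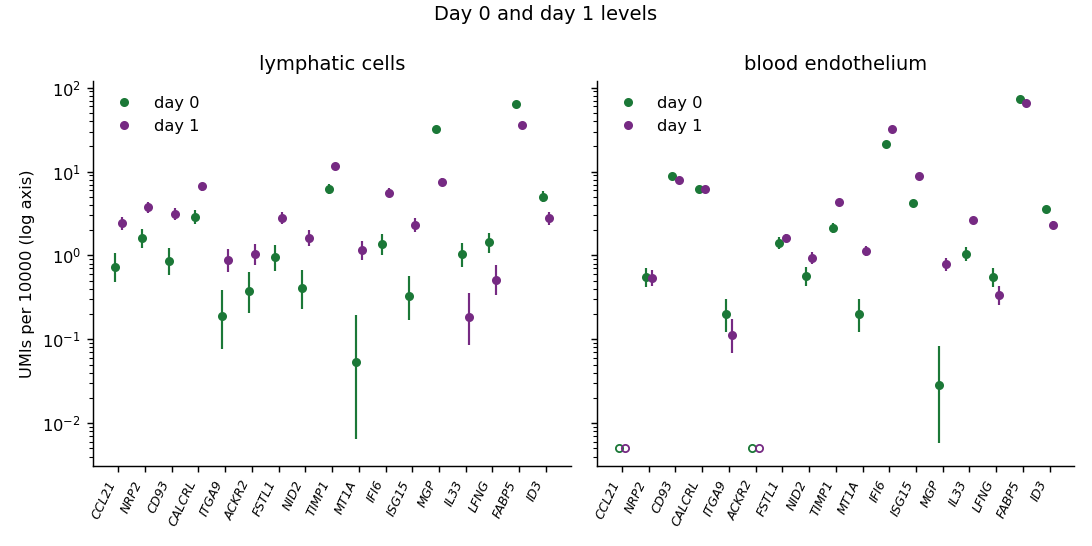
Levels (UMIs per 10000, log axis) of 17 genes on day 0 (green) and day 1 (purple) in all lymphatic members (left) and in blood endothelium (right); lines are exact 95% Poisson intervals and open symbols at the lower edge are 0 UMIs. CCL21 was at 0.731 and 2.41 in lymphatic cells and at 0 in blood endothelium, and IL33 was lower on day 1 in lymphatic cells (1.03 and 0.185) and higher in blood endothelium (1.04 and 2.62).

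In the DNA replication and mitosis list 8 of 8 genes with at least 20 UMIs on day 1 were at least 2-fold higher and 0 of 1 with at least 20 on day 0 at least 2-fold lower, with a median log2 ratio of 1.77 against 0.16 over all 4106 genes. Over all genes the shares were 9.48% and 5.49%. At least 5 UMIs of its genes other than HMGB2 were found in 1 of 44 members on day 0 (2.27%, 95% exact binomial interval 0.0575% to 12.02%) and 14 of 69 on day 1 (20.3%, 11.6% to 31.7%). In blood endothelium the shares were 8.33% (4.63% to 13.6%) and 18.8% (13.6% to 25.1%). The members' intervals of the days overlapped. With cells thinned to 1000 UMIs and a minimum of 2, the members were at 2.27% and 15.9% and blood endothelium at 7.14% and 11.5%. A single day 1 cell held 46.5% of the members' UMIs of these genes, for TOP2A 40 of 66, and outside the subset and the 4 cells 2 of the 4 genes with enough UMIs were past 2-fold. TOP2A was at 0.433 and 1.36 in the members beside low-UMI levels of 0.377 and 0.36, and HMGB2 at 2.19 and 4.64 beside 3.03 and 2.69. With genes near the low-UMI level left out, 6 were higher, and without the 5% of barcodes with the most UMIs 2. With members of 3 or more immune marker UMIs left out 0 were higher, and 7 when MRC1, which the members express, was not counted. With cells thinned, which leaves fewer UMIs, 0 were higher.

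Some interferon-stimulated genes were higher on day 1. In lymphatic cells 5 of 11 genes with at least 20 UMIs on day 1 were at least 2-fold higher and 0 of 6 with at least 20 on day 0 at least 2-fold lower (median log2 ratio 0.89), and in blood endothelium 15 of 25 were higher. Over all genes the shares were 9.48% and 5.49% in lymphatic cells, and 6.46% were higher in blood endothelium. Among members outside the subset and the 4 cells 6 of 10 were higher and 1 of 3 lower, against 9.08% and 2.46% of all genes there. ISG15 was at 0.325 and 2.31 UMIs per 10000, IFI6 at 1.35 and 5.6 and IRF1 at 0.487 and 1.36 in lymphatic cells. The low-UMI levels of the same genes were 1.99 and 6.02, 3.74 and 5.6 and 0.733 and 2.06, so each was at or below its low-UMI level on day 1, and with genes near that level left out 0 were called. The part of free RNA in these differences was not tested. Leukocyte traffic genes gave 7 of 14 higher and 1 of 9 lower on day 1, against 9.48% and 5.49% over all genes. Of the higher ones CCL21, ACKR2, CXCL2 and CCL2 were seen in at least 10 day 1 cells and VCAM1, CXCL8 and MADCAM1 in 4, 5 and 7. IL7 was lower, at 0.622 and 0.247. Outside the subset and the 4 cells 4 of 11 traffic genes were higher. In all members 4 were with genes near the low-UMI level left out, and 0 with cells thinned, which leaves fewer UMIs.

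For coagulation and tone genes, 5 of 15 genes with at least 20 UMIs on day 1 were at least 2-fold higher and 1 of 10 with at least 20 on day 0 at least 2-fold lower, and outside the subset and the 4 cells 2 of 14 were higher. The shares over all genes, 9.48% and 5.49% in all members, stand beside these counts and those of the lists below. Guidance genes gave 3 of 11 higher (NRP2, UNC5B and PLXND1) and 0 of 9 lower, against 9.48% and 5.49% over all genes. Outside the subset and the 4 cells 0 of 10 guidance genes were higher. The transcription factor list gave 0 each way, PROX1 being at 6.66 and 6.74 and SOX18 at 10.1 and 9.05, as did the heat shock, ribosomal protein, lipid, junction and scavenger lists. In the epithelial list 11 of 11 genes were lower on day 1, 6 without the 4 cells, and 1 without the subset as well or with genes near the low-UMI level left out. Growth factor genes gave 1 of 6 higher and 3 of 6 lower, and outside the subset and the 4 cells 1 higher and 0 lower.

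Day 3 against day 1 and day 3 against day 0 could not be compared in lymphatic cells, since day 3 held none. In the 23 blood endothelial cells of day 3, with 166361 UMIs in all, FLT1 was at 2.46, ADGRL4 at 5.89 and PLVAP at 31.3 UMIs per 10000, LYVE1 at 0.301, and PROX1 at 0.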

How the data were processed

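Single-cell RNA-seq of the ileum of piglets aged 0, 1, 3, 7, 14 and 21 days was analysed, 1 library per age, groups being taken from the age label. Per the labels and the study's methods, the authors made 10x Genomics libraries and processed them with Cell Ranger 3.1.0 (STAR) against Sscrofa11.1. The deposited files hold whole-number UMI counts for every barcode, empty ones included (6794880 barcodes and 20648 genes per matrix). The labels name the v3 kit and the study's methods the v2 kit, and a design text of the series names cecum where the samples are labelled ileum. The study's own step that forces a fixed number of cells is not in these files. Barcodes under 1000 UMIs or 500 genes were dropped, and those with at most 100 UMIs were used to gauge free RNA.

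Counts were summed over the cells of a kind within a library and divided by their total UMIs, giving UMIs per 10000. Intervals are 95%, exact Poisson for levels, exact conditional for ratios and Clopper-Pearson for shares, and PCR and droplet sampling beyond counting are not in them. A gene was called past 2-fold with at least 20 UMIs in the higher group and the lower count raised to a floor of 3. No test was run, for want of replicates. No doublet caller was run, and leaving out the 5% of barcodes with the most UMIs was tried instead. Genes named were those of 39 fixed lists (609 genes), the 15 each way with the largest smaller ratio between kinds, and the 10 each way with the largest age ratio among genes at least 2-fold above the low-UMI level. Genes outside this rule that the text names (those of the subset, and age genes outside it such as CMTM8, GAS6 and NOV) were chosen after their values were seen. Some genes that the rule picks are not reported here. The members, lists and comparisons were chosen with earlier results of these data known. The rules had foreseen day 3 in both comparisons, which had no member, so days 0 and 1 were used. Python 3.11.15, numpy 2.4.6, scipy 1.17.1, pandas 2.3.3, R 4.3.3 and edgeR 4.0.16 (TMM factors only) were used. The calling step was tested on simulated independent Poisson counts. In these no gene was carried by a single cell, so calls of such genes were not covered. Positions come from the RefSeq annotation of Sscrofa11.1. Alternatives tried were stricter marker, depth, mitochondrial and immune limits, a wider choice of blood endothelium, another scaling, other minimums, equal weight per cell and thinned cells.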

Additional observations from a re-analysis of the deposited data

Results flagged for a closer look

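For 6 genes the members and the blood endothelium differed in opposite directions between the ages, each by at least 2-fold; the difference was not tested, since each age has 1 library. It is given as the log2 of the day 1 over day 0 ratio in lymphatic cells minus that in blood endothelium, from the levels as they stand, with no floor. IL33, an alarmin, was at 1.03 and 0.185 UMIs per 10000 in lymphatic cells (12 of 44 and 5 of 69 cells) and at 1.04 and 2.62 in blood endothelium, a difference of -3.81. MGP was at 32.0 and 7.58 and 0.0285 and 0.781, a difference of -6.85, with 470 of 1184 day 0 UMIs in 1 cell. IL18BP was at 0.649 and 0.0824 and 0.114 and 0.37, a difference of -4.68. In the other direction, ZBTB16, a transcription factor, was at 0.271 and 0.598 in lymphatic cells and 1.57 and 0.712 in blood endothelium (2.28), and the growth factor homologue FGF12 at 0.108 and 0.412 and 0.276 and 0.0798 (3.72). CCL20 (-9.44) rests on 1 day 0 cell with all 126 UMIs and, in blood endothelium, on 1 UMI on day 0. MGP had 3 UMIs in blood endothelium on day 0. Outside the subset and the 4 cells MGP was at 32.2 and 4.14, IL18BP at 0.542 and 0.107, IL33 at 0.975 and 0.16, with 13 of 18 day 0 UMIs in 1 cell and a level of 0.288 without it, ZBTB16 at 0.325 and 0.587, which is under 2-fold, and FGF12 at 0.217 and 0.48. There IL18BP, IL33 and FGF12 had under 20 UMIs on the day with the higher level, which is below the minimum for a call.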

How the results depend on the processing

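The day 0 and day 1 member counts stayed within their binomial intervals under all alternatives but 1. Leaving out members with 3 or more UMIs of immune markers left 21 on day 0, 25 on day 1 and 0 on day 7; MRC1, which the members express, is among those markers, and with MRC1 not counted 38 and 56 remained. The day 7 member was also lost at 2000 UMIs and 1000 genes (0). The immune limit took the genes higher and lower than in blood endothelium to 297 and 318 and the genes higher and lower on day 1 to 120 and 87. A minimum of 50 UMIs gave 299 higher than blood endothelium, 94 higher on day 1 and 50 lower on day 1, and a minimum of 10 gave 793 and 436 for the ages. Thinning each cell to 1000 UMIs, which leaves fewer UMIs, gave 153, 154, 47 and 14. The count lower on day 1 also moved to 90 without the 5% of barcodes with the most UMIs, 60 without genes near the low-UMI level and, with alternatives chosen after seeing the data, 88 without the 4 cells, 94 without the immune members with MRC1 not counted and 37 without the subset too. Without genes near the low-UMI level, the genes higher and lower than in blood endothelium came to 376 and 374. With blood endothelium taken by at least 3 UMIs of PECAM1, FLT1 and ADGRL4 alone they came to 479 and 561. These kept 77.4% and 74.1% of the genes first called. Interferon-stimulated genes were then 2 higher and 10 lower, leukocyte traffic genes 6 and 6 and iron, complement and acute phase genes 5 and 2.

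Without the subset and the 4 cells, C3H2orf40 was at 0.0542 and 0 in lymphatic cells, so its day 1 ratio could not be given. Otherwise no gene among the 30 leading ones of lymphatic against blood endothelium changed direction under the alternatives run. LYVE1, MMRN1, TBX1, FLT1 and ADGRL4 are among these and chose the cells. Their direction was largely set by the rule, so it is no sign of stability. Of the leading age genes these did, given as the log2 ratio in the direction first called (with the lower count at the floor): with the immune limit SPP1 -1.83, SLC5A1 -0.83, IL18BP -0.25; without the 5% of barcodes with the most UMIs FABP6 -0.21, SPP1 -1.17; with equal weight per cell SLC2A6 -0.36; thinned FCAMR -0.65, CCL20 -0.94, SLC2A6 -0.94; without the 4 cells CXCL13 -2.15, SPP1 -1.02; with MRC1 not counted FABP6 -0.36, SPP1 -1.21; without the subset too CXCL13 -2.61, VCAM1 -0.28, FABP6 -1.20, SPP1 -0.56, SLC5A1 -0.56. Where an alternative left 0 UMIs at the age first called higher, no ratio could be given and the gene is not listed for it. A gene carried by a single cell can thus be missing because that cell was left out. The cause of the changes was not tested except where the count of cells shows it. No paired analysis was possible because each age has 1 library, and no replicate could be left out. Day 3 against days 0 and 1 could not be run. Depth limits genes under about 20 UMIs, and absence at days 3 to 21 means only below the shares stated.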
